A study of Gallus gallus with 4 samples.

Results

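CHRM4, CHRND and CHRNG encode acetylcholine receptor proteins, and their transcripts were read here by 1 named array probe each in DT40, a B cell line from a chicken bursal lymphoma. The probes were taken by the RefSeq accession that the array files give: NM_001031191 for CHRM4 (probe A_87_P009241), NM_001031317 for CHRND (A_87_P009237) and NM_001031568 for CHRNG (A_87_P009217). They are 3 of 42034 probes on the array and 3 of the 50 genes whose names could be matched here. Only 66 probes carry a RefSeq accession, so further probes for these or related genes may be present without a name. The CHRNG probe was well above background on 4 of 4 arrays, at similar signals. The CHRND probe was well above background on 0 of 4. The CHRM4 probe was well above background on 4 of 4 arrays, at 1 level on 3 of them and 0.95 higher on the log2 scale in untreated parental DT40. That array also had raised signal at the spots around the CHRM4 probe.

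Acetylcholine acts through G protein coupled (muscarinic) receptors and through ligand-gated cation channels (nicotinic receptors). CHRM4 encodes the M4 muscarinic receptor, which couples to inhibitory G proteins and lowers cyclic AMP, and which is known from brain. CHRND and CHRNG encode the delta and gamma subunits of the nicotinic receptor of skeletal muscle, the channel that opens at the neuromuscular junction. In mammals the gamma subunit belongs to the receptor of embryonic and denervated muscle, and an epsilon subunit takes its place in adult muscle. In mammals, lymphocytes are known to express muscarinic and neuronal-type nicotinic receptors and to make acetylcholine. In the gene order of the RefSeq assembly GRCg7b, CHRND and CHRNG are direct neighbours among protein-coding genes, with PRSS56 before CHRND and EIF4E2 after CHRNG. CHRM4 stands between AMBRA1 and MDK.

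The study asked whether auxin, a plant hormone that switches on sets of plant genes, also does so in an animal cell. Total RNA came from exponentially growing cultures of parental DT40 and of a stable DT40 line that expresses OsTIR1, the rice auxin receptor F-box protein. Each line was harvested untreated or 6 h after the natural auxin indole-3-acetic acid (IAA) was added to 500 µM from an ethanol stock, all at 38.5 °C. The 4 groups are therefore parental DT40 without IAA, parental DT40 with IAA, the OsTIR1 line without IAA and the OsTIR1 line with IAA, with 1 culture and 1 array each. The promoter that drives OsTIR1, whether the line is 1 clone, and what the untreated cultures received are not given in the sources used here. With 1 array a group there are no replicates and no spread between cultures can be given, so the number of arrays limits what these values can show.

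Levels below are log2 of the processed spot intensity minus the 75th percentile of that array, so a level of 0 is a probe at that percentile. An intensity belongs to its own probe and is compared here between arrays, not between genes. Between 20086 and 24359 of the 42034 probes were well above background on an array, fewest in untreated parental DT40. The dimmest spot that the software flagged well above background had 14.3 units on the untreated and 10.4 on the IAA-treated parental array, and 5.71 and 6.12 units on those of the OsTIR1 line. Counting named genes, 22 of 50 were well above background on 4 arrays, 4 on some and 24 on none. The other acetylcholine pathway genes that had been listed, such as CHAT and ACHE, the synthesising and degrading enzymes, CHRNA1 and RAPSN, have no named probe here (0 of 38). The listed muscle and neuron markers have none either (0 of 9 and 0 of 8). Of 9 listed B lymphocyte markers only the recombinase gene RAG1 has one, and it was not well above background on any array, so the labelled cell type could not be checked from named genes.

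CHRM4, the muscarinic receptor gene, gave a processed signal of 78.7 ± 8.73 intensity units in untreated parental DT40, where the error is the scanner software's estimate for the spot. It gave 38.2 ± 4.65 in parental DT40 with IAA, 39.4 ± 4.19 in the OsTIR1 line without IAA and 37.3 ± 4.04 in the OsTIR1 line with IAA. Untreated parental DT40 stood alone, and the other 3 arrays spanned 0.05 on the log2 scale, less than the error of any of these spots. The signal was 3.67 to 6.91 times the lowest one flagged well above background on the same array, and 8.22 to 9.41 times its own error.

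The levels of CHRM4 were -1.17 in untreated parental DT40, -2.14 in parental DT40 with IAA, -2.12 in the OsTIR1 line without IAA and -2.17 in the OsTIR1 line with IAA. In descending order these are untreated parental DT40, the OsTIR1 line without IAA, parental DT40 with IAA and the OsTIR1 line with IAA. The last 3 do not differ beyond a nominal 95% interval from the spot errors, and only the step of 0.95 below untreated parental DT40 does.

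**Figure D1:**
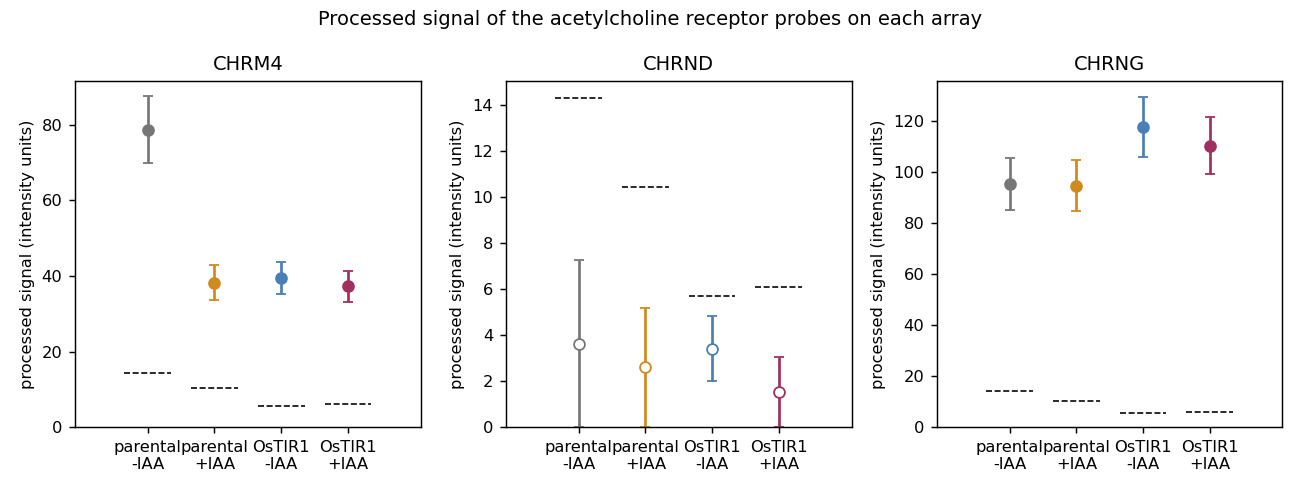
Processed signal (intensity units, linear axes from 0) of the CHRM4, CHRND and CHRNG probes on the 4 arrays. Points are single spots, bars are the scanner software's error of the spot, open points are not well above background, and dashed lines give the lowest signal flagged well above background on that array. CHRM4 stands at 78.7 units in untreated parental DT40 and at 37.3 to 39.4 elsewhere, CHRNG at 94.5 to 117 on 4 arrays, and CHRND below the dashed line on 4 arrays.

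The surface of the untreated parental array was bright around the CHRM4 probe. Of the 50 probes nearest to it, all within 0.265 mm, 26 were not well above background on the other 3 arrays. On the untreated parental array 25 of these 26 were well above background, against 1.90% of the 16976 probes of this kind on the whole array. Their background-subtracted signal had a median of 29.8 units there (14.5 to 44.6 over the 26 probes). The same 26 probes, chosen as dark there, had a median of 0.918 units on the treated parental array, 0.256 on the untreated OsTIR1 array and -0.294 on the treated one. In the same measure CHRM4 itself had 73.5 units in untreated parental DT40 and 36.3 with IAA. Its processed signal, which is also detrended, stood 40.5 units higher in untreated parental DT40 than with IAA.

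**Figure D2:**
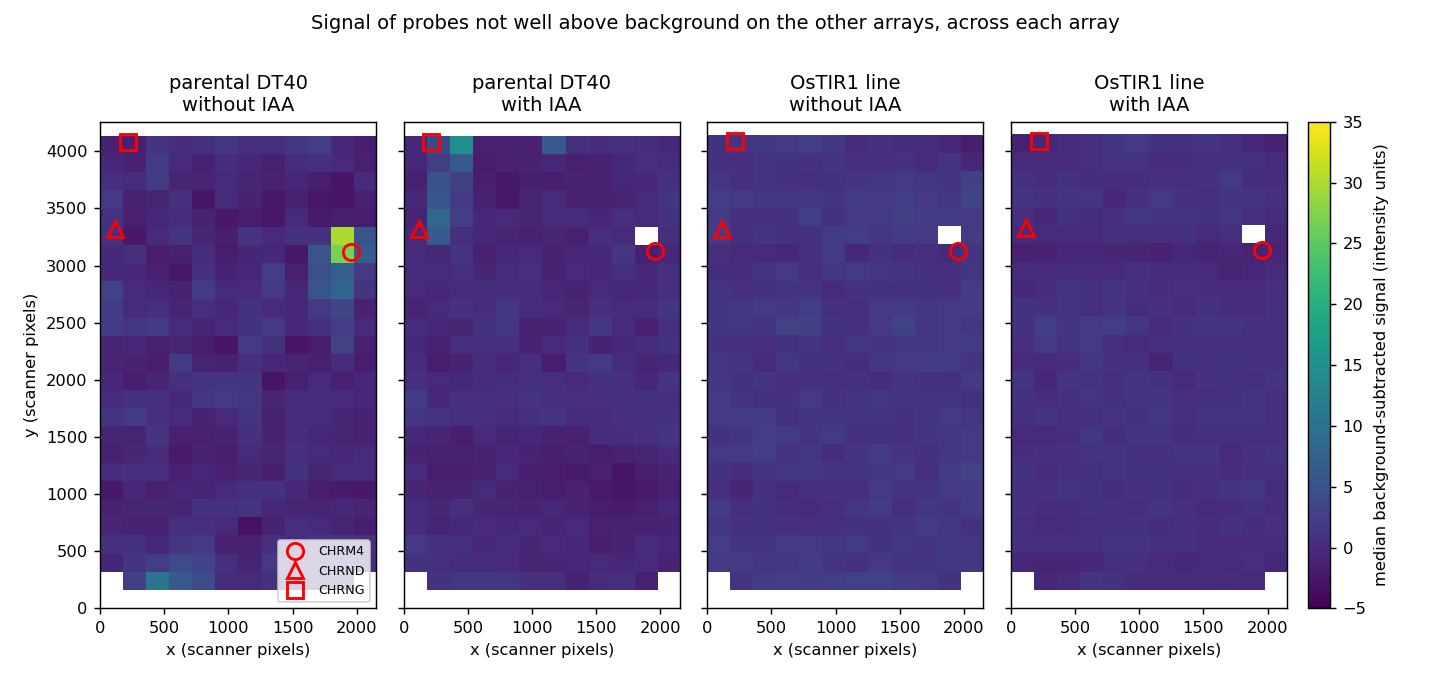
Surface of the 4 arrays, with the position of the CHRM4 (circle), CHRND (triangle) and CHRNG (square) probes in scanner pixels. Colours give the median background-subtracted signal (intensity units) of probes that were not well above background on the other 3 arrays, and white bins hold under 5 such probes. Around CHRM4 the untreated parental array has a bright bin, where the 26 nearest dark probes had a median of 29.8 units. Of the 50 probes nearest to CHRM4, 26 enter this panel and 1 enters each other panel, so the panels do not compare the same spots. The same 26 probes, chosen as dark on the other arrays, had medians of 0.918, 0.256 and -0.294 units there.

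The 18 neighbours of CHRM4 that were well above background on 4 arrays were split by their mean signal on the OsTIR1 arrays, which the IAA difference in parental DT40 does not use. The 6 with a signal under 2 times that of CHRM4 were lower with IAA in 6 of 6 cases, with a median of -0.49 (-1.52 to -0.36). The 12 brighter ones were lower in 5 cases and had a median of 0.10 (-0.56 to 0.33). Over all 19492 probes well above background on both parental arrays the median was -0.01. The share of equally dim probes lower with IAA over the whole array was not counted. Spike-in control transcripts have repeated spots over the array. The closest spot of a bright spike-in (level 2.73), 25.2 scanner pixels from CHRM4, was 0.22 higher with IAA, the highest of its 32 spots. The closest spot of another bright one (level 7.81), 121 pixels away, was 0.05 higher. The closest spot of a dimmer one (level -0.67), 127 pixels away, was 0.38 lower, the lowest of its 32 spots. The 50 probes nearest to CHRM4 lay within 53.1 pixels, so the spots at 121 and 127 pixels were outside that area. For a spike-in at level 1.15 the closest spot, 459 pixels away, was 0.21 higher, also the highest of its 32. Such an extreme was therefore not limited to spots near CHRM4.

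CHRNG, the gamma subunit gene of the muscle receptor, gave 95.2 ± 10.3 intensity units in untreated parental DT40 and 94.5 ± 9.87 with IAA. In the OsTIR1 line it gave 117 ± 11.8 without IAA and 110 ± 11.1 with IAA. Both OsTIR1 arrays were above both parental arrays, by 22.3 units between the untreated cultures and 15.6 between the treated ones. In descending order the levels were -0.55 in the OsTIR1 line without IAA, -0.61 in the OsTIR1 line with IAA, -0.83 in parental DT40 with IAA and -0.89 in untreated parental DT40. No neighbours in this order differ beyond such an interval. Its signal was 6.65 to 20.6 times the lowest one flagged well above background, the smaller ratios coming from the parental arrays, where that lowest signal was higher.

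CHRND, the delta subunit gene next to CHRNG in the genome, gave 3.64 ± 3.63 intensity units on the untreated parental array and 2.604 ± 2.59 on the treated one. On the OsTIR1 arrays it gave 3.42 ± 1.40 untreated and 1.54 ± 1.53 treated. None of these reached the lowest signal flagged well above background on its array, of which they were 0.250 to 0.600 times. On 3 arrays the processed value is 1.00 times its error and stands above the background-subtracted signal of 0.400, 0.442 and -1.03 units, so it is not a measured level, and no fold or order is given for CHRND. The transcript was not detectable with this probe at this sensitivity, which does not show that it is absent. In the OsTIR1 line without IAA the spot carried the software's weaker flag, positive and significant against background, at 2.45 times its error. That array had the dimmest spot flagged well above background of the 4 arrays, and the median spot signal of 32.5 units there was just above 31.0, the level of the negative control spots plus 2.6 of their SDs.

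The comparison with IAA in parental DT40 asks whether auxin acts on cells without the plant receptor. CHRM4 was 0.97 lower on the log2 scale with IAA, a 1.96-fold difference, with a nominal 95% interval of -1.44 to -0.51, and 0.12 or 0.22 lower once the local signal of 20 or 50 dark spots around it was subtracted. Normexp, which adds 50 units to each corrected spot and so shrinks log2 differences of dim spots, gave 0.40 lower. Local scaling turned the sign to 0.69 over all neighbours, and gave -0.91 over neighbours well above background on 4 arrays. Counting that last one, 7 alternative settings gave -0.99 to -0.77. The interval comes from the software's errors of both spots and covers no variation between cultures. CHRNG was 0.06 higher (-0.36 to 0.49). The CHRM4 difference passed 1.5-fold and missed 2-fold. Of 19492 probes well above background on both arrays, 271 (1.39%) were at least 1.5-fold lower with IAA, 0.518% were 1.5-fold higher or more, 0.333% were lower by 2-fold or more, and 98 (0.503%) differed by as much as CHRM4 in either direction. Among the 4873 dimmest of these probes, the dimmest of 4 equal bins and the one that holds CHRM4, 83 (1.70%) did. Intervals without 0 were found for 2.24% of all probes. The 20 other named genes above background on 4 arrays ranged from -0.23 for TGFB2, a growth factor gene, to 0.13 for PRLHR2, a peptide hormone receptor gene, and none differed by as much as CHRM4.

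**Figure D3:**
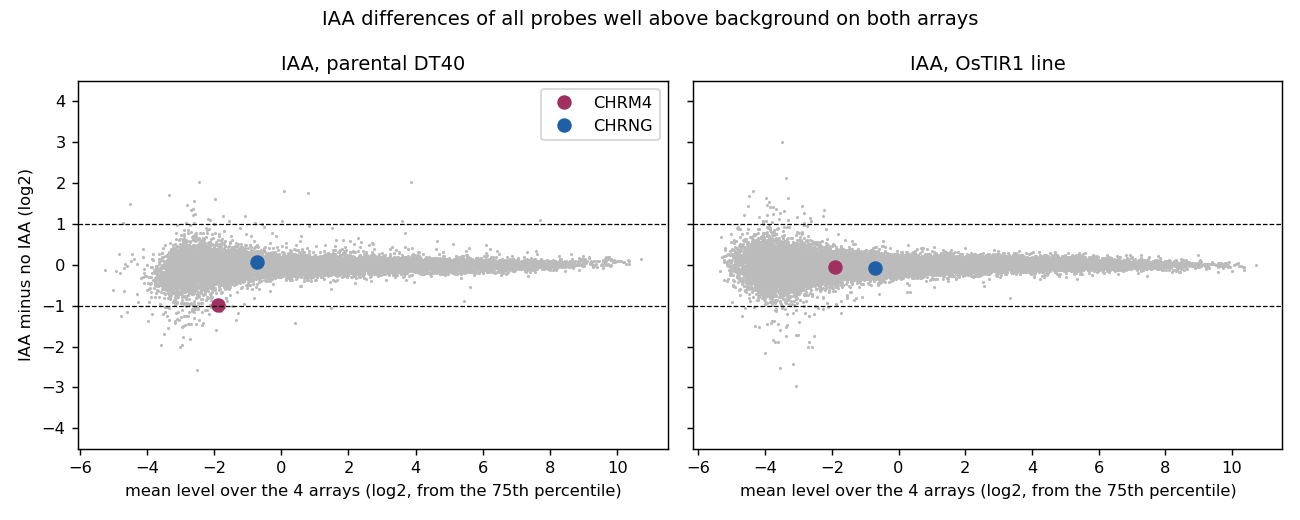
IAA difference (log2, treated minus untreated) against the mean level over the 4 arrays (log2, relative to the 75th percentile) for each probe lit on the treated and the untreated array of a line, lit meaning well above background. Grey points are single probes, coloured points are CHRM4 and CHRNG, and dashed lines mark 2-fold. CHRM4 lies at -0.97 in parental DT40 (left) and at -0.05 in the OsTIR1 line (right), while CHRNG lies at 0.06 and -0.06.

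IAA in the OsTIR1 line addresses cells that carry the plant receptor. CHRM4 was 0.05 lower with IAA (-0.48 to 0.38) and CHRNG 0.06 lower (-0.47 to 0.34). Neither reached 1.5-fold, which 0.761% of 22873 probes did upward and 1.43% downward, and 2.74% of probes had an interval without 0. Of all probes, 68.5% differed by more than CHRM4 and 62.4% by more than CHRNG. The CHRM4 interval reaches 0.48 downward and 0.38 upward from the spot errors alone. It covers no variation between cultures, so it does not bound how large a change could be. The IAA difference of CHRM4 was 0.92 higher in the OsTIR1 line than in parental DT40 (0.29 to 1.55). It was 0.05 and 0.22 after local subtraction over 20 and 50 dark spots and 0.38 with normexp. Local scaling gave -0.42 over all neighbours and 0.91 over those well above background on 4 arrays. These settings are described with the array surface further on. That of CHRNG was 0.13 lower (-0.71 to 0.46). With 1 array a group these contrasts between the lines have no test.

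The OsTIR1 line was compared with its parent in untreated cultures first. CHRM4 was there 0.95 lower in the OsTIR1 line (-1.39 to -0.52), a 1.94-fold difference, and 0.17 or 0.28 lower once the local signal was subtracted. Normexp gave 0.42 lower. Local scaling gave 0.83 higher over all neighbours, and -0.90 over neighbours well above background on 4 arrays. With IAA the same line comparison, which shares no array with the first, gave 0.04 lower (-0.50 to 0.43). The first rests on the untreated parental array and the second does not use it. Of 19709 probes measured in untreated cultures, 4.15% were at least 1.5-fold lower in the OsTIR1 line and 1.64% at least 2-fold lower, and 10.3% had an interval without 0. In either direction, 474 (2.40%) differed by as much as CHRM4. Among the 4927 in the dimmest of 4 equal bins, which holds CHRM4, 326 (6.62%) did. In treated cultures 3.59% of 20604 were at least 1.5-fold lower and 9.26% had such an interval.

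CHRNG was 0.35 higher in the OsTIR1 line without IAA (-0.07 to 0.76), a 1.27-fold difference, and 0.22 higher with IAA (-0.19 to 0.63), 1.16-fold. Both intervals include 0, and neither difference reached 1.5-fold, which 2.25% and 2.27% of probes did upward. Both OsTIR1 arrays stood above both parental arrays for CHRNG, as for 5936 of 19436 probes (30.5%), so this pattern is common on these arrays. Over the alternative settings the difference ran from 0.16 to 0.45 without IAA and from 0.10 to 0.59 with IAA. Of the 20 other named genes above background on 4 arrays, 4 differed by as much as CHRNG between the lines without IAA and 9 with IAA. Over all probes measured, 3381 of 19709 (17.2%) did so without IAA and 6204 of 20604 (30.1%) with IAA, in either direction.

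**Figure D4:**
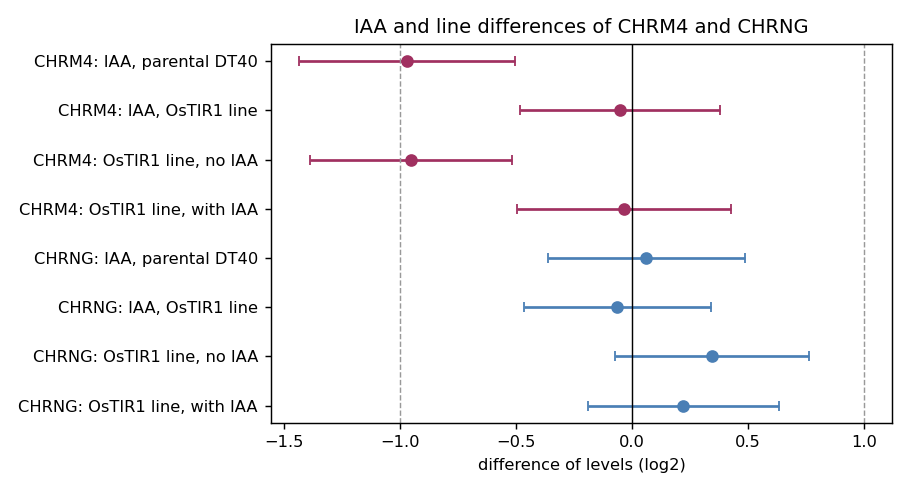
Differences of CHRM4 and CHRNG (log2) for IAA in each line and for the OsTIR1 line against parental DT40. Points are differences between 2 single arrays, bars are nominal 95% intervals from the spot errors, and dashed lines mark 2-fold. The intervals of CHRM4 exclude 0 in the 2 comparisons that use untreated parental DT40 (-0.97 and -0.95) and include it in the others, and those of CHRNG include 0 in all 4.

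An additive limma fit with a term for the line and a term for IAA was run across all probes, with 1 residual degree of freedom. CHRM4 had an IAA effect of -0.51 ± 0.28 (SE) with an adjusted p of 0.955 and a line effect of -0.49 ± 0.28 with an adjusted p of 0.442. CHRNG had an IAA effect of 0.00 with an adjusted p of 1.00 and a line effect of 0.28 ± 0.08 with an adjusted p of 0.239 (unadjusted 0.0377). CHRND was not among the 23100 probes fitted. limma called 0 of 23100 probes (0%) for either term. An unadjusted p under 0.05 was found for 1125 probes with IAA and 4333 for the line. The count for the line depended on the setting: limma called 2795 probes with normexp, 2928 with median spot signals, 2970 with trend and robust estimation and 910 of the 19436 lit on 4 arrays. With normexp the CHRM4 line effect of -0.23 had an adjusted p of 0.0322. In that setting CHRM4 and CHRNG had the same SE, 0.0775, for both terms, so it did not reflect the gap of CHRM4 itself. In the main setting the CHRM4 effects average a difference near 1 and a difference near 0, and the fit takes the gap between them as error.

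Repeated spots of spike-in transcripts show how far single spots of 1 control transcript differ between arrays. The spike-in nearest to the brightness of CHRM4, with a mean level of -2.20, had 32 spots on each array. Their SD within an array was 0.09 to 0.18. Between parental DT40 with and without IAA these 32 spots differed by -0.27 to 0.42, so the -0.97 of CHRM4 lay outside them. The spot of this spike-in closest to the CHRM4 probe, 347 scanner pixels away, differed by -0.12. The 50 probes nearest to CHRM4 lay within 53.1 pixels, so none of the 32 spots was in that area. Their range therefore does not gauge the spread at the place of CHRM4. The spike-in nearest to the brightness of CHRNG, at -0.67, differed by -0.43 to 0.18 between the lines without IAA and by -0.18 to 0.12 with IAA. The CHRNG differences of 0.35 and 0.22 lay above both ranges. Spots of the dimmer spike-in, at -2.20, ran from -0.31 to 0.30 without IAA and from -0.45 to 0.41 with IAA. The 0.22 of CHRNG with IAA lay within the latter range, and both nominal intervals of CHRNG include 0. This spread covers labelled RNA on the array and not the growth of the cultures.

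With the local signal subtracted, the CHRM4 value in untreated parental DT40 was the highest by a smaller step, which is within the spot errors. The nominal half-widths before subtraction were 0.47 for IAA in parental DT40 and 0.43 between the untreated lines. The error of that spot was 8.73 units, and the 26 dark probes near it ranged from 14.5 to 44.6 units. The subtraction took from each background-subtracted spot the median of the nearest 20 spots that were dark on the other 3 arrays, which was chosen with the surface already in view. On the arrays other than the untreated parental one these spots lie farther from CHRM4, since its close neighbours were lit on that array. CHRM4 then gave 42.9 units in untreated parental DT40, 37.8 in parental DT40 with IAA, 37.4 in the OsTIR1 line without IAA and 34.8 with IAA. Its IAA difference in parental DT40 was -0.12 in place of -0.97, and its line difference without IAA -0.17 in place of -0.95. Over the nearest 50 such spots these were -0.22 and -0.28, with levels of -1.94 in untreated parental DT40 and -2.17 to -2.22 on the other arrays. Normexp background correction with quantile normalization gave -0.40 and -0.42. It adds 50 units to each corrected spot, which shrinks log2 differences of dim spots anywhere on an array. With it the CHRNG differences between the lines shrank too, to 0.17 without IAA and 0.12 with IAA. Local scaling turned both signs of CHRM4, to 0.69 and 0.83. It takes off the median log2 deviation of the nearest 200 probes instead of a signal. That median includes dark neighbours, so it takes more from a lit spot than an additive correction. Over the nearest 200 probes well above background on 4 arrays, local scaling gave -0.91 and -0.90. This version was not planned in advance either. Of the 50 probes nearest to CHRM4, 18 are of this kind, so the 200 reach farther out than those 50. The IAA difference of CHRM4 in the OsTIR1 line was -0.07 and 0.00 after local subtraction over 20 and 50 spots, -0.02 with normexp and 0.27 after local scaling. Its line difference with IAA was -0.12 and -0.06 after local subtraction, -0.04 with normexp and 0.41 after local scaling.

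CHRNG and CHRND lay in other parts of the surface. Of the 50 probes nearest to CHRNG, 18 were dark on the 3 arrays other than untreated parental DT40 and 0 of these 18 were well above background on that array. Chosen in the same way for each of the other arrays, 2 of 20 were lit on the treated parental array (10%, against 1.36% over the array), 3 of 20 on the untreated OsTIR1 array (15% against 7.43%) and 0 of 17 on the treated one. The local signal around CHRNG ranged from -1.67 to 3.03 units over the 4 arrays, against a spot signal of 84.4 to 107 units. With it subtracted, CHRNG was 0.27 higher in the OsTIR1 line without IAA and 0.26 higher with IAA, and its IAA differences were -0.01 and -0.02. Around CHRND, 0 of 11 such probes were well above background on the untreated parental array, and 0 of 11 and 0 of 10 on the treated arrays of the parental and OsTIR1 lines. On the untreated OsTIR1 array, where the CHRND spot carried its weaker flag, 4 of 14 were lit (28.6% against 7.43%). The local median there was 3.01 units, close to the 3.41 background-subtracted units of the CHRND spot.

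**Figure D5:**
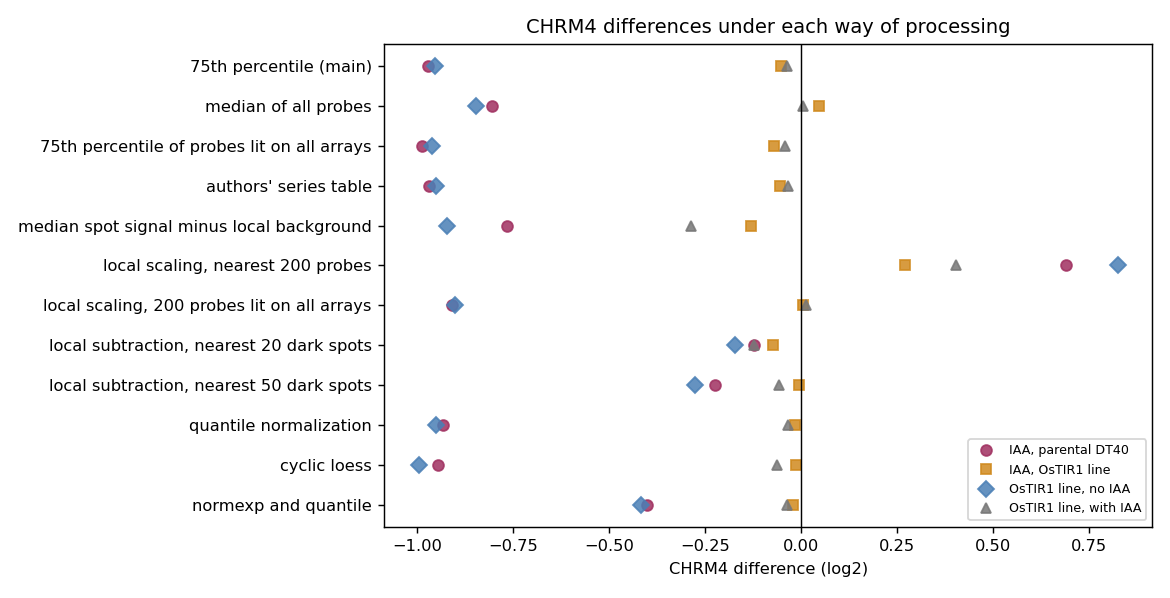
CHRM4 differences (log2) in the 4 comparisons under each way of processing the intensities. Each point is a difference between 2 single arrays. The comparisons that use untreated parental DT40 lie at -0.97 and -0.95 in the main setting. With normexp, which adds 50 units to each corrected spot, they lie at -0.40 and -0.42. They lie at -0.12 to -0.28 after local subtraction. Local scaling puts them at 0.69 and 0.83 over the nearest 200 probes, and at -0.91 and -0.90 over the nearest 200 lit on 4 arrays.

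Of the 24 other G protein coupled receptor genes listed beside CHRM4, 12 have a named probe here. The list left out some receptor genes with a named probe. Of those, OLFR4 and OR51M1 were well above background on the untreated OsTIR1 array alone, and NPY4R, BDKRB2 and OR52R1 on none. Among the 12 listed, MC1R, CRHR1, PRLHR2 and OLFR6 were well above background on 4 arrays and AVPR2 on 1. AVPR1B, MC2R, MC4R, MC5R, NPY1R, NPY2R and NPY5R were so on none. The 4 genes lit on 4 arrays are described next. None of these 4 reached 1.5-fold in any of the 4 comparisons. Over all probes 1.39% to 4.15% did so downward and 0.518% to 2.27% upward, so a count of 0 of 4 sets them apart from nothing. With IAA their differences had a median of 0.03 in parental DT40 (-0.22 to 0.13) and -0.16 in the OsTIR1 line (-0.38 to 0.23), against medians of -0.01 and 0.00 over all probes. Between the lines their medians were 0.18 without IAA (-0.26 to 0.49) and 0.16 with IAA (-0.42 to 0.26), against 0.00 and 0.01 over all probes. AVPR2, a vasopressin receptor gene, was well above background in untreated parental DT40 alone, as CHRM4 was brightest there. It had 21.2 intensity units there, at least 1.94-fold above the IAA array and at least 3.60-fold above the untreated OsTIR1 array. It too lay near raised signal: 22 of its 50 nearest probes were dark on the other 3 arrays, 7 of these were well above background on the untreated parental array, and the local median was 15.04 units. With that subtracted AVPR2 had 6.32 units.

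Among the 21 other named genes well above background on 4 arrays, those with the pattern most like CHRM4 were CRHR1, CKMT1B and GPHN, by the root mean square distance of mean-centred levels. CRHR1, a receptor of corticotropin-releasing hormone, lay at 0.30, CKMT1B, a mitochondrial creatine kinase gene, at 0.35 and GPHN, the gene of gephyrin, a scaffold of inhibitory synapses, at 0.35. CRHR1 was 0.22 lower with IAA in parental DT40 and 0.38 lower in the OsTIR1 line. CKMT1B and GPHN were 0.10 and 0.03 lower with IAA in parental DT40. CHRM4 was 0.97 lower there, so even the nearest genes did not share its step. None of the 3 genes reached 1.5-fold in any of the 4 comparisons.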

How the data were processed

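Per the file headers, one-colour Agilent arrays (Cy3) were extracted by Feature Extraction version 10.5.1.1 on a galGal2 grid. The deposited intensity values are background-subtracted and detrended within each array, with the lowest values replaced, as a comparison of the columns shows, and are not scaled between arrays. All 4 arrays lie on 1 slide. The authors' series table holds the same intensities times 1 constant per array (4.40 to 4.63). Each array held 43451 spots; 1417 control spots were left out. No spot of the 3 probes was saturated or an outlier.

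Levels are log2 of the processed signal minus the array's 75th percentile. Intervals are 1.96 times the combined spot error. Probes not well above background on an array got no fold. limma 3.58.1 in R 4.3.3 fitted line and IAA terms to the probes lit on 2 or more arrays, with Benjamini-Hochberg adjustment, tested on simulated data. The remaining steps used Python 3.11.15. Names came from RefSeq (GRCg7b): of 66 probes with a RefSeq accession 51 matched. Groups came from the sample titles. Members, lists and rules were chosen with earlier results of these data known. Counts of named genes are over the 50 genes matched by accession. Values by gene are given for the members, the listed genes with a probe (12 receptor genes and RAG1) and the 3 genes most like CHRM4 among those well above background on 4 arrays. TGFB2 and the receptor genes outside the list were added after their values were seen. Alternatives were other scalings, background corrections, filters, detection rules and local surface corrections. The files hold no mean spot signal, so the median was used in its place.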

Additional observations from a re-analysis of the deposited data

Results flagged for a closer look

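CHRNG was 0.061 higher with IAA in parental DT40 while its IAA difference was -0.064 in the OsTIR1 line, which are opposite signs with 1 array a group. Both values lie within the nominal intervals of either comparison, and the difference between the lines was not tested. Under local scaling over the nearest 200 probes the signs turned, to -0.05 and 0.13.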

How the results depend on the processing

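No paired analysis was possible because each group has 1 array and the labels carry no replicate numbers, so the nearest to one is the additive fit, whose IAA term takes the line as a block; no array can be left out either, since the fit would have no residual degree of freedom, and the slide could not be a block because there is only 1. For CHRM4 in parental DT40 with IAA (-0.97), normexp with quantile normalization gave -0.40, local subtraction over 20 and 50 dark spots -0.12 and -0.22, and local scaling over the nearest 200 probes 0.69. For CHRM4 between the lines without IAA (-0.95), these gave -0.42, -0.17, -0.28 and 0.83. The difference between the lines in the CHRM4 IAA difference (0.92) was 0.049 and 0.22 under local subtraction and -0.42 under local scaling. In 8 alternatives it lay between 0.38 and 0.93. The local scaling takes the median log2 deviation of all neighbours, dark ones included, so it takes more from a lit spot than an additive correction. Over lit neighbours alone the parental IAA difference was -0.91 and the line difference without IAA -0.90. The difference between the lines in the IAA difference was then 0.91. The CHRNG differences moved by less than their intervals in all 44 alternative values; between the lines they ran from 0.16 to 0.45 without IAA and from 0.10 to 0.59 with IAA. Their small IAA differences changed sign in some settings. Median scaling moved the median of all probes by 0.17 for IAA in parental DT40 and gave 0.23 there for CHRNG, with the sign kept. In the OsTIR1 line it gave 0.04, where the main setting gave -0.06. Over the alternatives, the limma adjusted p for the line ran from 0.0322 to 0.476 for CHRM4. The 0.0322 came from normexp, where both genes had the same SE. For CHRNG the adjusted p for the line ran from 0.0639 to 0.335. For IAA it ran from 0.447 for CHRM4 and 0.451 for CHRNG upward. Calls over all probes for the line were 2928 with median spot signals, 6 and 10 with local subtraction, 2795 with normexp, 910 with probes lit on 4 arrays and 2970 with trend and robust estimation; for IAA they were 109 with normexp and 8 with trend and robust estimation. Probes at least 2-fold different with IAA numbered 92 in parental DT40 and 77 in the OsTIR1 line, and 429 and 322 between the lines without and with IAA. With normexp, whose 50 added units shrink log2 differences, these were 7, 0, 69 and 64. At 1.5-fold in the main setting they were 372, 500, 1260 and 1207. Local scaling gave 141 for IAA in parental DT40 and probes lit on 4 arrays 24 in the OsTIR1 line. CHRND counted as detected on 1 array by the positive-and-significant flag and on 1 by the negative control threshold. No cause of these differences was tested. The CHRM4 step and the raised signal around its probe were on the same array, and their relation was not tested. Signal near background limits CHRND on all arrays, and 1 array a group limits every comparison.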
